A study of Mus musculus with 30 samples.

Results

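A set of genes known from the interstitial progenitor cells of the fetal testis was followed across cultures exposed to a phthalate monoester, a retinoid or both. The set was a list of 6 gene symbols, Pdgfra, Pdgfrb, Lhx9, Nr2f2, Tcf21 and Hes1, matched by Ensembl identifier. It made up 6 of the 49315 genes counted. This set and the wider gene lists were chosen with earlier results of these data known. Their counts beside shares of all genes are therefore a description and not a test. All 6 passed the filter on low counts. RNA was sequenced from fetal testes of C57BL/6 mice, an inbred strain, dissected from the mesonephros on gestational day 14 and then cultured for 24 h. The 4 treatment groups were MEHP at 100 µM (n = 6), ATRA at 1 µM (n = 5), MEHP + ATRA at the same doses (n = 4) and vehicle (n = 15). All cultures, vehicle included, carried the same dilution of DMSO. MEHP is mono-(2-ethylhexyl) phthalate, the monoester formed from the plasticizer DEHP, and ATRA is all-trans retinoic acid, the ligand of the retinoic acid receptors. The sample titles carry a second number that fell either above 500 (upper range) or below it (lower range), and its meaning is not stated. All 6 MEHP libraries and 6 of the vehicle libraries lay in the upper range. All ATRA and MEHP + ATRA libraries and the other 9 vehicle libraries lay in the lower range. MEHP was therefore set against upper-range vehicle, and ATRA and MEHP + ATRA against lower-range vehicle. Whether libraries stem from different animals or litters is not stated in the labels, and the p-values measure only the spread between libraries, which may in part be technical.

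Interstitial progenitors lie between the testis cords and are a source of fetal Leydig cells, which make androgens, and of stromal and perivascular cells. PDGF-A, made mainly by the cords, acts through the receptor PDGFRα on interstitial cells, and mice lacking Pdgfra have defects of testis vasculature and fetal Leydig cells. Notch signalling, with Hes1 as a classic target gene, keeps a part of the progenitors undifferentiated in the mouse. The LIM homeobox factor LHX9, the basic helix-loop-helix factor TCF21 and the nuclear receptor COUP-TFII, encoded by Nr2f2, mark coelomic epithelial or interstitial cells of the developing gonad.

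RefSeq promoter sequences (GRCm38.p6) were at hand for 4 of the 6 genes. They are shown because Pdgfra and Lhx9 fell together with ATRA, while Nr2f2 and Tcf21 did not pass the test. Each is the stretch of up to 250 bases before the RefSeq start, 5′ to 3′ on the strand of the gene, and that of Lhx9 is trimmed to 237 bases so that it holds none of the gene's exons. The RefSeq start of Lhx9 lies inside the longer span that the files give this gene. Capitals mark every match, on either strand, to the nuclear receptor half-site AGGTCA, the E-box CANNTG that basic helix-loop-helix factors bind, the N-box CACNAG bound by HES factors or the core TGGGAA bound by the Notch effector RBPJ.
Pdgfra, chr5:75152001-75152250 (+): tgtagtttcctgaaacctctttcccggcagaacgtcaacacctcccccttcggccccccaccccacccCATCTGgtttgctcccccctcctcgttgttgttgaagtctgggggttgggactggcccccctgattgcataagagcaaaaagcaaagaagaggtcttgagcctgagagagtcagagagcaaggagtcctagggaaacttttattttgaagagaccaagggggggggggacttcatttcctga
Lhx9, chr1:138842458-138842694 (−): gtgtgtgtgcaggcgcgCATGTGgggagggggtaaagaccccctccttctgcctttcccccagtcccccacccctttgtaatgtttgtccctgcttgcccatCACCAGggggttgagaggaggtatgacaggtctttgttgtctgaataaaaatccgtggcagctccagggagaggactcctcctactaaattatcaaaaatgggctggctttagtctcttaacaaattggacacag
Nr2f2, chr7:70366747-70366996 (−): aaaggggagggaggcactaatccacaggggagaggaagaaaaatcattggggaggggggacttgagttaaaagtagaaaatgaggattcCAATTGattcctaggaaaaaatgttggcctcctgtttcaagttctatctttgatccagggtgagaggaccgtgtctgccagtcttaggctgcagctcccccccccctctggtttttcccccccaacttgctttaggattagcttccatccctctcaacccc
Tcf21, chr10:22820144-22820393 (−): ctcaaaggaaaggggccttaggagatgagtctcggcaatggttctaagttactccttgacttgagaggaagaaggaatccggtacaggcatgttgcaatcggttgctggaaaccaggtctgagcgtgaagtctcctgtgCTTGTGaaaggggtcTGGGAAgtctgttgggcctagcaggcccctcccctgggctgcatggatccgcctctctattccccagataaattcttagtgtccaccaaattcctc
The E-box stood in the windows of Pdgfra, Lhx9 and Nr2f2, and 66.2% of 32851 RefSeq windows of 250 bases hold it. The N-box stood in those of Lhx9 and Tcf21, against 36.7% of all windows, and the RBPJ core in that of Tcf21, against 21.6%. None of the 4 held AGGTCA, which 14.0% of all windows hold. The lack of a match says only that these letters are not in these windows.

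On the coordinates of the files, which lie on a GRCm38 frame, Pdgfra (ENSMUSG00000029231) spans chromosome 5, 75152292 to 75198215, on the plus strand. Pdgfrb (ENSMUSG00000024620) spans chromosome 18, 61045150 to 61085061, plus strand. Lhx9 (ENSMUSG00000019230) spans chromosome 1, 138825186 to 138848577, minus strand. Nr2f2 (ENSMUSG00000030551) spans chromosome 7, 70351944 to 70366735, minus strand. Tcf21 (ENSMUSG00000045680) spans chromosome 10, 22817279 to 22820128, minus strand. Hes1 (ENSMUSG00000022528) spans chromosome 16, 30064384 to 30067796, plus strand. The counted value of each gene is the sum over its exons. Exons of Nr2f2 share 643 bases (7.46% of its exon length) with the antisense gene B130024G19Rik, whose mean count was 15.9% of that of Nr2f2. The strand setting of the counting is not given in the sources used here, so reads of the 2 genes cannot be told apart in that stretch. Genes that overlap Pdgfra held at most 0.134% of its count.

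The libraries held 17551454 to 29306917 counted reads, and the 6 genes drew from 670 reads (Hes1 in a MEHP library) to 34580 reads (Pdgfra). Known responses followed the labels: the retinoid-degrading enzyme gene Cyp26a1 was higher by 6.10 ± 0.31 in log2 with ATRA (SE, adjusted p = 2.32e-15, edgeR), and Angptl4, a target of the fatty acid sensors that phthalate monoesters activate, by 1.39 ± 0.07 with MEHP (adjusted p = 4.4e-14, edgeR). The retinoid receptor gene Rarb was higher by 3.85 ± 0.16 with ATRA, and the cholesterol synthesis gene Mvd by 0.97 ± 0.08 with MEHP. Mvd was not particular to MEHP: with ATRA it was higher by 0.21 to 0.27 in fits without 1 library (adjusted p 0.00962 to 0.077, edgeR). In the same fits Angptl4 was lower with ATRA, at −0.39 to −0.31 (adjusted p 0.000219 to 0.00422, edgeR). Rarb was at 0.38 to 0.73 with MEHP (adjusted p 0.0264 to 0.45) and Cyp26a1 at 0.55 to 1.06 (adjusted p 0.52 to 0.846, edgeR). Rarb passed with MEHP without vehicle 6, and at 0.51 when the title range was left out of the model (adjusted p = 0.0375, edgeR). Markers of Sertoli cells (8 genes), Leydig cells (7 genes) and germ cells (6 genes) were detected, with none at 0 throughout. Among upper-range vehicle libraries, 2 stood apart in the interstitial progenitor genes. Vehicle 6 had the highest level of its group for Pdgfra, Lhx9, Nr2f2 and Tcf21. Vehicle 11 had the lowest for Lhx9 and Tcf21 and the highest for Pdgfrb. The MEHP results of the named genes are therefore also given without both. Without them Angptl4 was at 1.43 and Mvd at 0.96 with MEHP. Rarb was at 0.63 and Cyp26a1 at 1.0 (adjusted p = 0.078 and 0.485, edgeR).

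Per length of exons, the 6 genes were expressed at very unequal levels. In lower-range vehicle libraries, Tcf21 had the highest level at 724 ± 40.3 TPM (counts scaled to exon length and library total, SD, n = 9), then Pdgfra at 392 ± 10.7 TPM. Nr2f2 (77.8 ± 8.0 TPM), Hes1 (74.3 ± 7.07 TPM) and Pdgfrb (70.8 ± 8.99 TPM) followed and did not differ beyond their spread. Lhx9 was lowest at 44.0 ± 3.12 TPM, and its highest library (49.7 TPM) lay below the lowest library of Pdgfrb (54.9 TPM). In a bulk sample, fewer cells of a type and less RNA per cell cannot be told apart. All levels below are CPM, counts scaled to the size of the library alone, and are compared between libraries and not between genes.

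**Figure D1:**
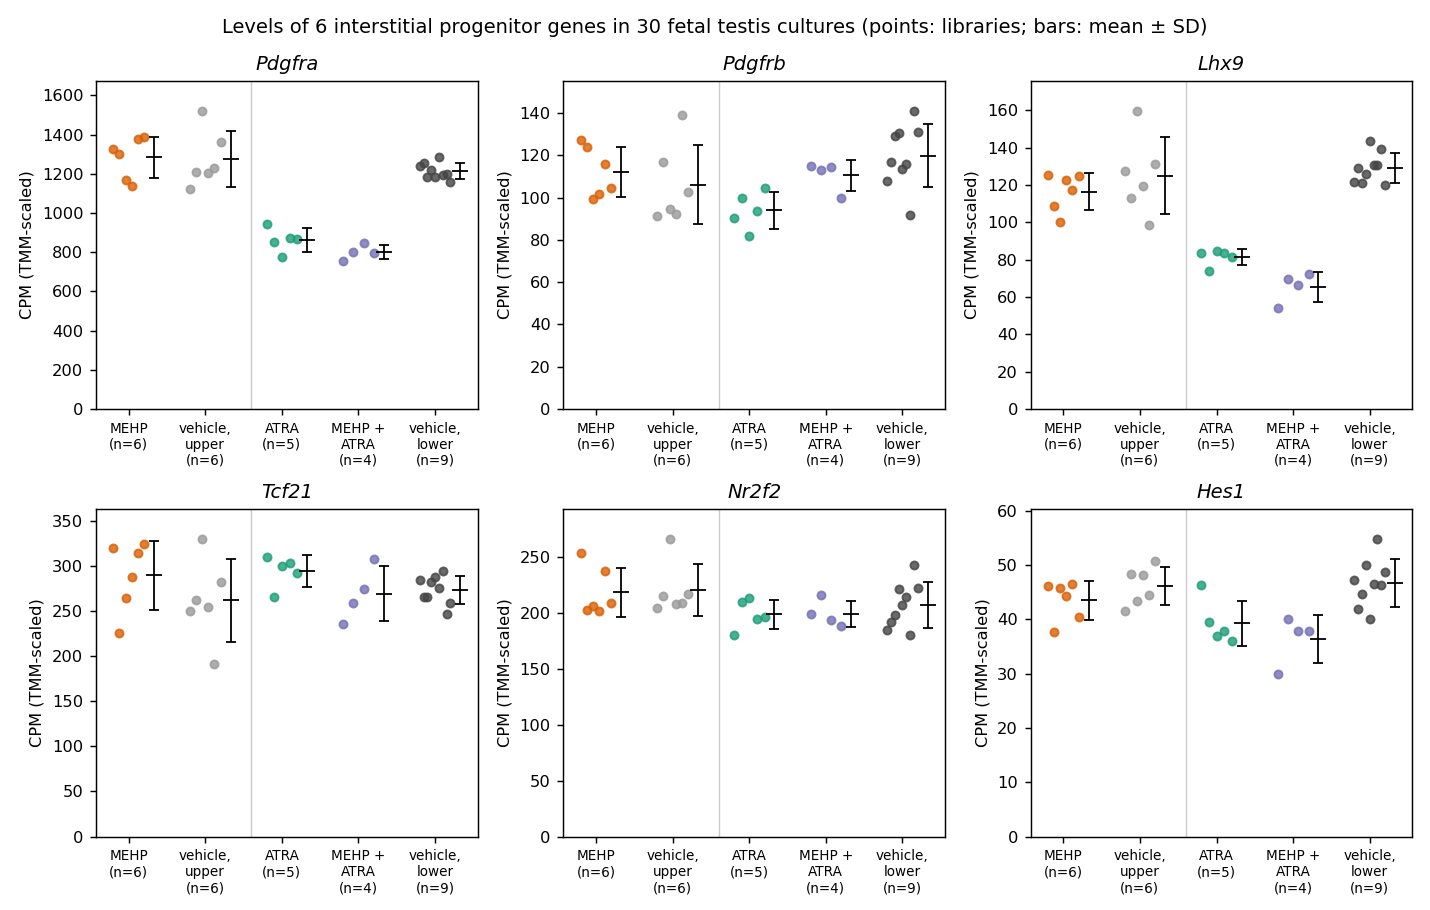
CPM of the 6 interstitial progenitor genes (y axes, from 0) in each of 30 libraries by treatment group; points are libraries, and the bar beside them is mean ± SD. A grey line parts the upper-range groups (MEHP and its vehicle) from the lower-range groups; the ATRA and MEHP + ATRA points of Pdgfra and Lhx9 lie below every vehicle point, and those of Tcf21 and Nr2f2 overlap vehicle.

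With ATRA, 4 of the 6 genes fell: Lhx9, Pdgfra, Pdgfrb and Hes1. Over all 19323 genes tested, 9.03% were called lower with ATRA (edgeR quasi-likelihood test, adjusted p below 0.05), and 18.1% were called in either direction. With MEHP + ATRA, 3 of the 6 fell, namely Lhx9, Pdgfra and Hes1, where 14.7% of all genes were called lower and 29.0% in either direction. None of the 6 was called with MEHP alone, and none had an unadjusted p below 0.05 either, where 4.72% of all genes were called. Genes called higher made up 9.06% of all genes with ATRA and 14.3% with MEHP + ATRA. With MEHP, 2.88% were called higher and 1.84% lower. DESeq2 and limma-voom with sample weights also called none of the 6 with MEHP. The ATRA and MEHP + ATRA comparisons share the 9 lower-range vehicle libraries, so their values are given side by side and not as separate support for each other. Without vehicle 6 and vehicle 11 the counts among the 6 were the same, 0 for MEHP, 4 for ATRA and 3 for MEHP + ATRA. The log2 fold changes for MEHP were 0.07 for Pdgfra, 0.16 for Pdgfrb, −0.07 for Lhx9, 0.14 for Tcf21, 0.05 for Nr2f2 and −0.12 for Hes1 in that fit (adjusted p from 0.304 to 0.747, edgeR).

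Pdgfra encodes PDGFRα, the receptor through which PDGF-A signals to interstitial cells. It stood at 778, 851, 866, 870.3 and 946 CPM in the 5 ATRA libraries, against a lowest of 1160.4, a median of 1199 and a highest of 1287 CPM in 9 lower-range vehicle libraries. Every ATRA library lay below every vehicle library. The log2 fold change was −0.49 ± 0.06 (SE, 95% interval −0.61 to −0.37, adjusted p = 1.55e-07, edgeR), a change of −29.0%. With MEHP + ATRA the 4 libraries held 757, 795, 799.7 and 845 CPM, again below all lower-range vehicle libraries. Pdgfra was lower there by −0.60 ± 0.06 in log2 (95% interval −0.73 to −0.47, adjusted p = 8.51e-09, edgeR). Over all genes, 4.54% had every ATRA library below every matched vehicle library, and 8.5% had every MEHP + ATRA library there. MEHP libraries had a lowest of 1140.3, a median of 1314 and a highest of 1389 CPM, against 1122, 1218.5 and 1522 CPM in upper-range vehicle libraries, so these groups overlapped (log2 fold change 0.01, 95% interval −0.11 to 0.13, adjusted p = 0.97, edgeR).

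Pdgfrb encodes PDGFRβ, the receptor that mural cells of vessels and their stromal precursors carry. The 5 ATRA libraries held 82.0, 90.1, 93.7, 99.7 and 104 CPM, against a lowest of 91.9, a median of 117 and a highest of 141 CPM in lower-range vehicle libraries. The groups overlapped, with 2 of 5 ATRA libraries below all vehicle libraries. Pdgfrb fell by 0.35 in log2 (SE 0.09, 95% interval −0.54 to −0.16, adjusted p = 0.00725, edgeR). The MEHP + ATRA libraries held 99.6, 113, 114 and 115 CPM, within the span of vehicle, and the log2 fold change was −0.12 ± 0.10 (adjusted p = 0.428, edgeR). The difference of MEHP + ATRA from ATRA was 0.23 ± 0.11 in log2 (95% interval 0.01 to 0.46, adjusted p = 0.358, edgeR), so it was not shown. The interaction of MEHP and ATRA on Pdgfrb was 0.16 ± 0.15 (unadjusted p = 0.3, edgeR). A change of the ATRA response of Pdgfrb by MEHP was therefore not shown either. The ratio of Pdgfra to Pdgfrb CPM in 1 library averaged 9.22 ± 0.871 with ATRA (SD, n = 5) and 7.26 ± 0.583 with MEHP + ATRA (n = 4), against 10.3 ± 1.47 in lower-range vehicle (n = 9). All MEHP + ATRA libraries, at 6.59 to 7.98, had a ratio below the lowest of lower-range vehicle (8.5). With MEHP the ratio averaged 11.5 ± 1.06 (SD, n = 6), against 12.3 ± 2.51 in upper-range vehicle (n = 6), which ran from 8.82 to 16.1. The ratio restates the levels of the 2 genes, was not tested and was not compared with other gene pairs.

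Among the 7 PDGF ligand and receptor genes, Pdgfa, which encodes the PDGF-A chain, had the largest changes. It was at 37.1 CPM at the lowest, 49.1 at the median and 67.0 at the highest in MEHP libraries, against 77.3, 98.4 and 187 CPM in upper-range vehicle libraries. It was at 24.7, 31.4, 32.2, 33.6 and 33.7 CPM with ATRA and at 17.1, 18.2, 21.0 and 21.3 CPM with MEHP + ATRA, against a lowest of 64.7, a median of 94.6 and a highest of 114 CPM in lower-range vehicle. None of the 3 treated groups overlapped its vehicle, which holds for 0.637% of all genes with MEHP in this direction. Pdgfa was lower by −1.14 ± 0.16 in log2 with MEHP (adjusted p = 1.44e-05), by −1.60 ± 0.16 with ATRA (adjusted p = 8.25e-09) and by −2.28 ± 0.19 with MEHP + ATRA (adjusted p = 4.36e-11, all edgeR). Leaving out vehicle 6 and vehicle 11 gave −0.91 with MEHP (adjusted p = 5.85e-05, edgeR). MEHP + ATRA and ATRA differed by −0.68 ± 0.20 in log2 (adjusted p = 0.0517, edgeR). All 4 MEHP + ATRA libraries lay below the 5 ATRA libraries, as they did for 3.54% of all genes.

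The other PDGF genes moved less. With MEHP, Pdgfa was the 1 member of 7 called, and with ATRA 3 of 7 fell, Pdgfa and both receptors. With MEHP + ATRA, Pdgfa, Pdgfra and Pdgfd fell and Pdgfb rose. Pdgfd, which encodes a ligand of PDGFRβ, was lower by −0.44 ± 0.10 in log2 (adjusted p = 0.00146, edgeR) and averaged 13.4 ± 1.27 CPM in MEHP + ATRA (SD, n = 4) against 18.2 ± 1.84 CPM in lower-range vehicle (n = 9). Pdgfb, the ligand gene of endothelial cells, was higher by 0.45 ± 0.15 (adjusted p = 0.0201, edgeR) with 3 of 4 libraries above all vehicle. That call was lost without MEHP + ATRA replicate 1 or replicate 4, with adjusted p up to 0.0855 (edgeR). Pdgfc, another PDGFRα ligand, and the receptor-like gene Pdgfrl did not pass in any of the 3. The median log2 change of the 7 was −0.25 with ATRA and −0.23 with MEHP + ATRA, against −0.01 or nearer to 0 over all genes.

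Lhx9 encodes a LIM homeobox factor needed for formation of the mouse gonad. In the 5 ATRA libraries it stood at 74.2, 81.4, 83.4, 83.4 and 84.8 CPM, and in the 4 MEHP + ATRA libraries at 54.1, 66.3, 69.8 and 72.1 CPM. Lower-range vehicle libraries had a lowest of 120.2, a median of 129 and a highest of 143 CPM, so neither treated group overlapped vehicle. Lhx9 fell by 0.66 in log2 with ATRA (SE 0.08, 95% interval −0.83 to −0.50, adjusted p = 2.1e-07, edgeR) and by 0.98 with MEHP + ATRA (SE 0.09, 95% interval −1.16 to −0.79, adjusted p = 3.54e-10, edgeR). These correspond to changes of −36.9% and −49.2%. With MEHP alone the libraries held 100.04 to 125 CPM, against 98.4 to 159.8 CPM in upper-range vehicle, and the log2 fold change was −0.10 (95% interval −0.27 to 0.07, adjusted p = 0.653, edgeR).

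All 4 MEHP + ATRA libraries lay below all 5 ATRA libraries in Lhx9, as they did for 3.54% of all genes. The difference was −0.31 ± 0.10 in log2 (95% interval −0.51 to −0.12, unadjusted p = 0.00283), which did not pass after adjustment (adjusted p = 0.0749, edgeR). None of the 6 genes was called in this comparison, where 3.0% of all genes were, and 2 (Lhx9 and Pdgfrb) had an unadjusted p below 0.05. Lhx9 passed under some other settings: the adjusted p was 0.0399 with DESeq2, 0.0133 with limma-voom with sample weights and 0.0136 with only the lower-range libraries fitted by edgeR. It was 0.0299 without vehicle 6, 0.0491 without vehicle 11 and 0.0161 without both (edgeR). It passed in 5 of the 9 alternative settings, among which the adjusted p reached 0.155. Over the 30 fits that left out 1 library each, it passed in 2, and the adjusted p ran from 0.0299 to 0.387 (edgeR). The interaction of MEHP and ATRA on Lhx9 was −0.21 ± 0.13 (unadjusted p = 0.101, adjusted p = 1.0, edgeR). A change of the ATRA response by MEHP was therefore not shown for Lhx9.

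Tcf21 encodes a basic helix-loop-helix factor of visceral mesenchyme, and it was the most abundant of the 6 per length. It stood at 265, 292, 300.06, 303 and 309.9 CPM with ATRA and at 236, 258, 274 and 308 CPM with MEHP + ATRA, against 247 to 294 CPM in lower-range vehicle with a median of 276. Of the 5 ATRA libraries, 3 lay above all vehicle libraries, and the groups overlapped. The log2 fold change was 0.11 ± 0.09 with ATRA (95% interval −0.07 to 0.28, adjusted p = 0.497, edgeR) and −0.02 ± 0.09 with MEHP + ATRA (95% interval −0.22 to 0.17, adjusted p = 0.889, edgeR). With MEHP it was 0.15 (95% interval −0.04 to 0.33, adjusted p = 0.501, edgeR). The interval for ATRA reaches no lower than −0.07, so a fall of the size seen in Pdgfra or Lhx9 lay outside it. The interaction was −0.27 ± 0.14 (unadjusted p = 0.0575, adjusted p = 1.0, edgeR).

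Nr2f2 encodes COUP-TFII, a nuclear receptor of stromal and progenitor cells. It held 181, 195, 196, 209.8 and 213 CPM with ATRA and 188, 194, 199 and 216 CPM with MEHP + ATRA, against 180.03 to 243 CPM in lower-range vehicle with a median of 207. All 9 treated values lay within the span of vehicle. The log2 fold change was −0.06 in both (95% intervals −0.20 to 0.08 with ATRA and −0.21 to 0.10 with MEHP + ATRA, adjusted p = 0.671 and 0.636, edgeR). With MEHP it was −0.01 (95% interval −0.16 to 0.14, adjusted p = 0.97, edgeR). Its antisense neighbour B130024G19Rik did not pass the test with any of the 3 treatments. Among relatives of Nr2f2, Nr2f1 (COUP-TFI) rose by 0.39 ± 0.09 in log2 with ATRA (adjusted p = 0.00246, edgeR) and 0.42 ± 0.10 with MEHP + ATRA (adjusted p = 0.00128, edgeR). Nr2f6 was lower, by −0.28 ± 0.09 (adjusted p = 0.0257, edgeR) and −0.45 ± 0.10 (adjusted p = 0.000447, edgeR).

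**Figure D2:**
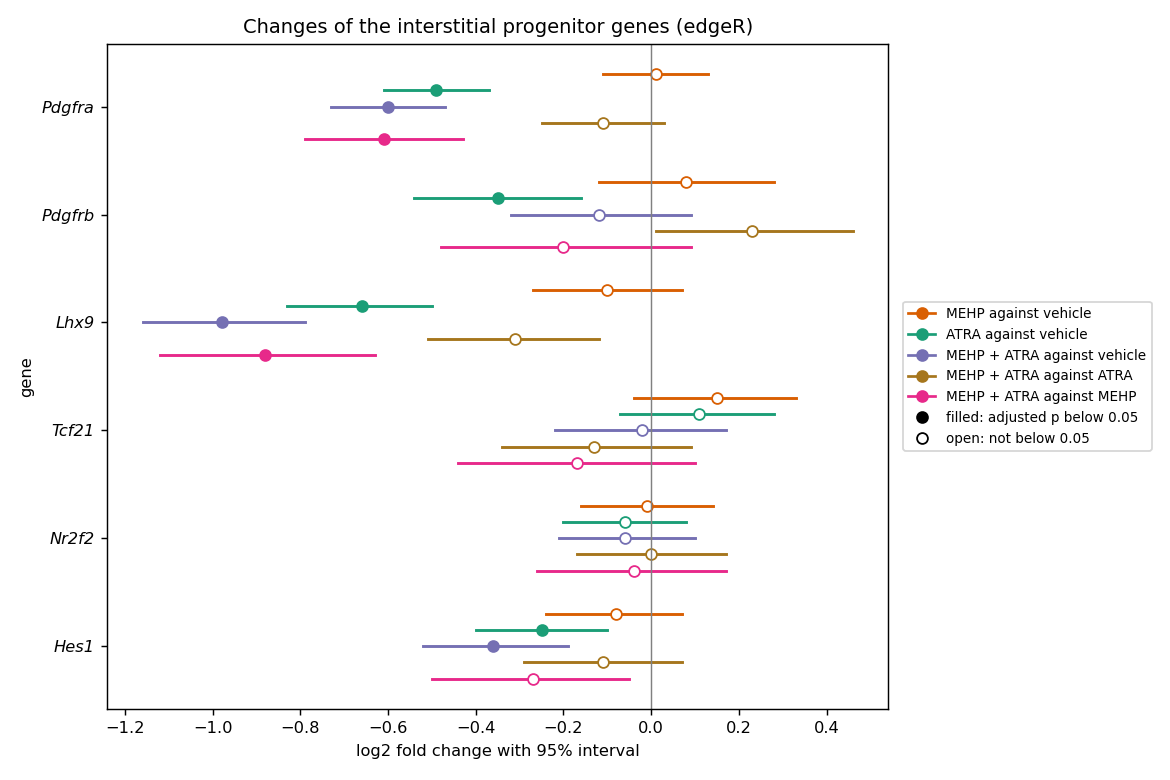
Log2 fold change (x axis) of each of the 6 genes (rows) in 5 comparisons, from the edgeR fit over 30 libraries; lines are 95% intervals and filled points passed at an adjusted p below 0.05. Pdgfra and Lhx9 lie left of 0 in the 3 comparisons of an ATRA-containing group with vehicle or MEHP, and the intervals of Tcf21 and Nr2f2 span 0 in all 5.

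Hes1 encodes a transcriptional repressor that Notch activates. It stood at 36.0, 36.9, 37.8, 39.4 and 46.4 CPM with ATRA and at 30.03, 37.9, 37.9 and 39.99 CPM with MEHP + ATRA, against a lowest of 40.1, a median of 46.5 and a highest of 54.9 CPM in lower-range vehicle. Of the 5 ATRA libraries 4 lay below all vehicle libraries, and all 4 MEHP + ATRA libraries did. Hes1 fell by 0.25 in log2 with ATRA (SE 0.07, 95% interval −0.40 to −0.10, adjusted p = 0.0164, edgeR) and by 0.36 with MEHP + ATRA (SE 0.08, 95% interval −0.52 to −0.19, adjusted p = 0.000859, edgeR). The ATRA call was lost without ATRA replicate 3 or replicate 5, with adjusted p of 0.0509 and 0.055 (edgeR). With MEHP it held 37.6 to 46.5 CPM, against 41.6 to 50.8 CPM in upper-range vehicle, and did not pass (log2 fold change −0.08, adjusted p = 0.70, edgeR).

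Of 26 Notch pathway genes, Hes1 included, 1 rose and 7 fell with ATRA, 4 rose and 9 fell with MEHP + ATRA, and 3 rose with none falling with MEHP. Over all genes, 9.06% rose and 9.03% fell with ATRA, 14.3% rose and 14.7% fell with MEHP + ATRA, and 2.88% rose with MEHP. The ligand gene Jag1 was at 35.0 to 40.2 CPM with ATRA and 34.8 to 40.7 CPM with MEHP + ATRA, against 47.1 to 55.0 CPM in lower-range vehicle. It was lower by −0.46 ± 0.07 (adjusted p = 3.2e-06) and −0.49 ± 0.07 (adjusted p = 2.43e-06, both edgeR), and with MEHP the value was −0.05 ± 0.07 (adjusted p = 0.826, edgeR). Hes5, a relative of Hes1, was low throughout, at 2.78 ± 0.796 CPM with ATRA (SD, n = 5) and 2.31 ± 0.891 CPM with MEHP + ATRA (n = 4), against 5.72 ± 1.29 CPM in lower-range vehicle (n = 9). Its log2 change was −1.04 ± 0.18 with ATRA (adjusted p = 7.83e-05, edgeR) and −1.31 ± 0.20 with MEHP + ATRA (adjusted p = 7.49e-06, edgeR). Heyl, a Notch target of mural cells, fell by 0.41 and 0.43 in log2, and Hes6, a relative whose product counteracts HES1, by 0.30 and 0.27. Hey1 went the other way with ATRA (0.41 ± 0.09, adjusted p = 0.000912, edgeR).

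With MEHP, 3 Notch pathway genes rose. Nrarp, a Notch target that feeds back on the pathway, averaged 11.6 ± 1.32 CPM in MEHP (SD, n = 6) against 6.41 ± 1.19 CPM in upper-range vehicle (n = 6). Its log2 change was 0.86 ± 0.11 (adjusted p = 3.01e-06, edgeR). Lfng, which encodes a glycosyltransferase of Notch receptors, rose by 0.37 ± 0.08 with MEHP (adjusted p = 0.00202, edgeR) but fell with ATRA (−0.28 ± 0.07, adjusted p = 0.0066, edgeR). Dll4, a ligand gene of endothelial cells, rose by 0.92 ± 0.24 (adjusted p = 0.0211, edgeR). It was at 0.86 with limma-voom with sample weights (adjusted p = 0.0567), 0.89 without vehicle 10 (adjusted p = 0.0501, edgeR) and 0.89 without vehicle 6 and vehicle 11 (adjusted p = 0.0571, edgeR), where the call was lost. Without those 2 libraries Nrarp was at 0.79 and Lfng at 0.37 (adjusted p = 3.37e-05 and 0.00738, edgeR). Of 8 endothelial markers, 4 were called higher and none lower with MEHP, where 2.88% of all genes were higher and 1.84% lower. Kdr, 1 of these 4, did not pass without vehicle 6 and vehicle 11 (adjusted p = 0.0851, edgeR), and the count was not redone without them. Summed levels overlapped, at 192 to 346 CPM in MEHP against 180.01 to 299 CPM in upper-range vehicle. The part of endothelial cells in the result was not tested. The median log2 change of the 26 genes was −0.07 with ATRA, −0.03 with MEHP + ATRA and 0.03 with MEHP.

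**Figure D3:**
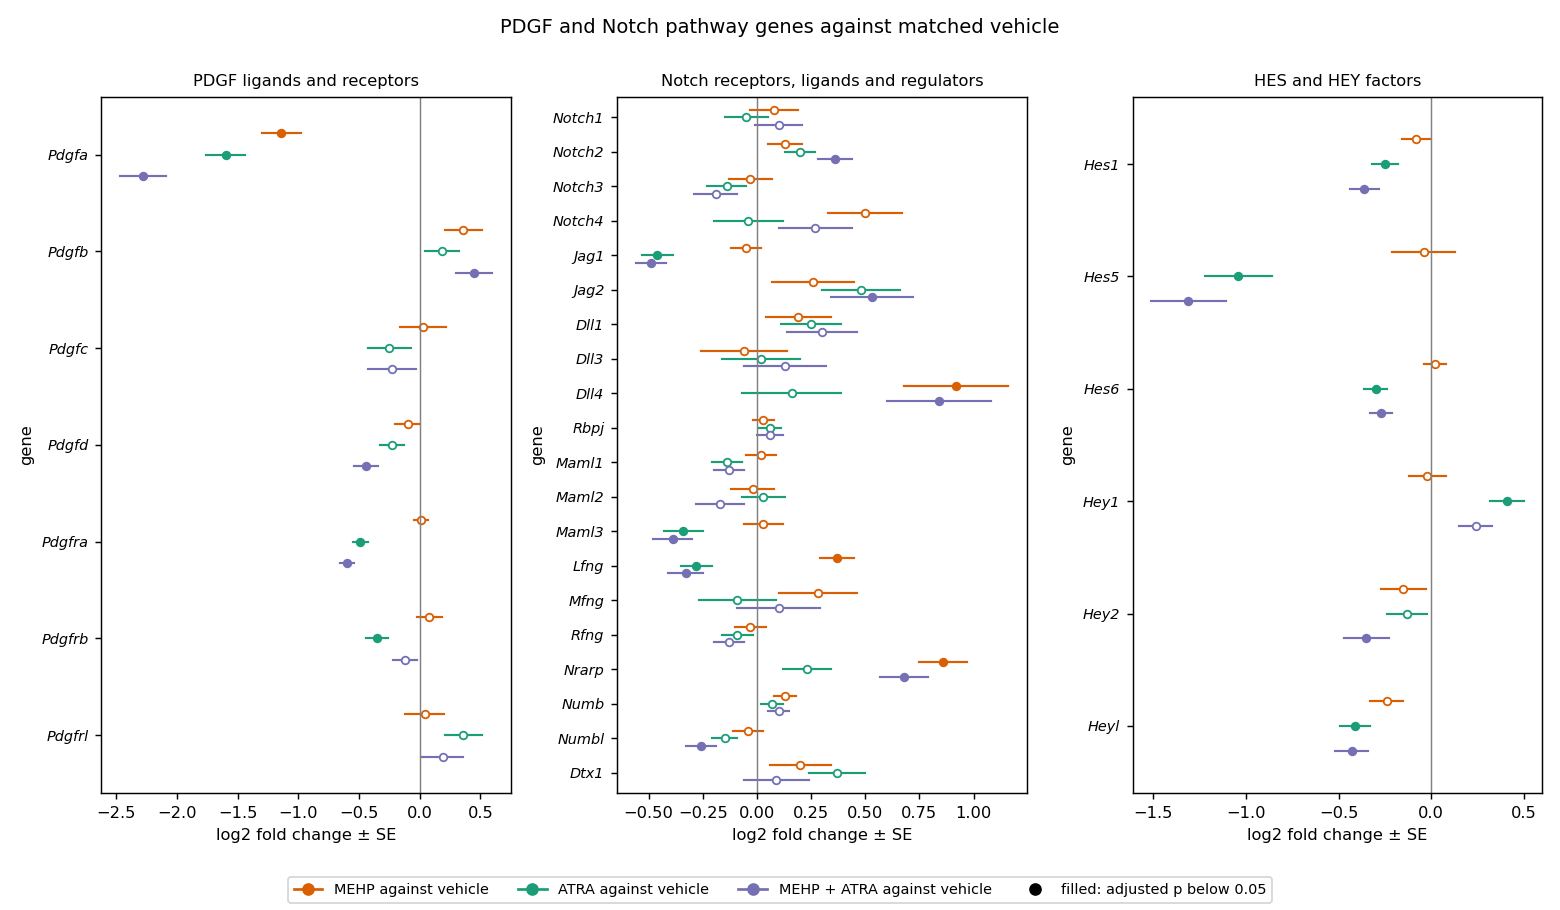
Log2 fold change ± SE (x axes) of 7 PDGF genes and 26 Notch pathway genes (rows), each treatment against the vehicle of its title range; filled points passed at an adjusted p below 0.05 (edgeR). Pdgfa is lower in all 3 comparisons, and Jag1, Hes5, Hes1, Hes6 and Heyl are filled and left of 0 for ATRA and MEHP + ATRA.

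In a wider list of 32 interstitial and stromal genes, which holds all 6 genes, 3 rose and 14 fell with ATRA and 4 rose and 15 fell with MEHP + ATRA. Without the 6 genes, 26 remained, of which 3 rose and 10 fell with ATRA, 4 rose and 12 fell with MEHP + ATRA, and none rose and 2 fell with MEHP. Over all genes, 9.06% rose and 9.03% fell with ATRA, and 14.3% rose and 14.7% fell with MEHP + ATRA. The shares with MEHP were 2.88% and 1.84%. The median log2 change of the 26 was −0.16 with ATRA, −0.20 with MEHP + ATRA and 0.02 with MEHP, against −0.01 or nearer to 0 over all genes tested. Vcam1, a cell adhesion gene of perivascular cells, was at 7.42 ± 1.07 CPM with ATRA (SD, n = 5) and 4.81 ± 1.03 CPM with MEHP + ATRA (n = 4), against 17.6 ± 1.99 CPM in lower-range vehicle (n = 9). It fell by 1.24 and 1.86 in log2 (adjusted p = 4.26e-10 and 5.51e-13, edgeR). MEHP + ATRA was below ATRA by −0.62 ± 0.14 (adjusted p = 0.00664, edgeR). Vcam1 also fell with MEHP (−0.44 ± 0.11, adjusted p = 0.0105, edgeR), with −0.37 and an adjusted p of 0.0509 (edgeR) without vehicle 6 and vehicle 11.

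Twist1, a basic helix-loop-helix gene of mesenchyme like Tcf21, fell by 0.60 with ATRA and 0.85 with MEHP + ATRA in log2. The fibrillar collagen gene Col3a1 fell with all 3 treatments, and its log2 change was −0.25 for MEHP, −0.54 for ATRA and −0.76 for MEHP + ATRA (adjusted p = 0.00986, 3.3e-08 and 1.07e-10, edgeR). Without vehicle 6 and vehicle 11 the MEHP value was −0.22 (adjusted p = 0.046, edgeR). Dcn, which encodes the matrix proteoglycan decorin, went the other way, at 444 ± 30.7 CPM with ATRA (SD, n = 5) and 444 ± 57.9 CPM with MEHP + ATRA (n = 4), against 216 ± 22.3 CPM in lower-range vehicle (n = 9). Its log2 change was 1.04 in both (SE 0.12 and 0.13).

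**Figure D4:**
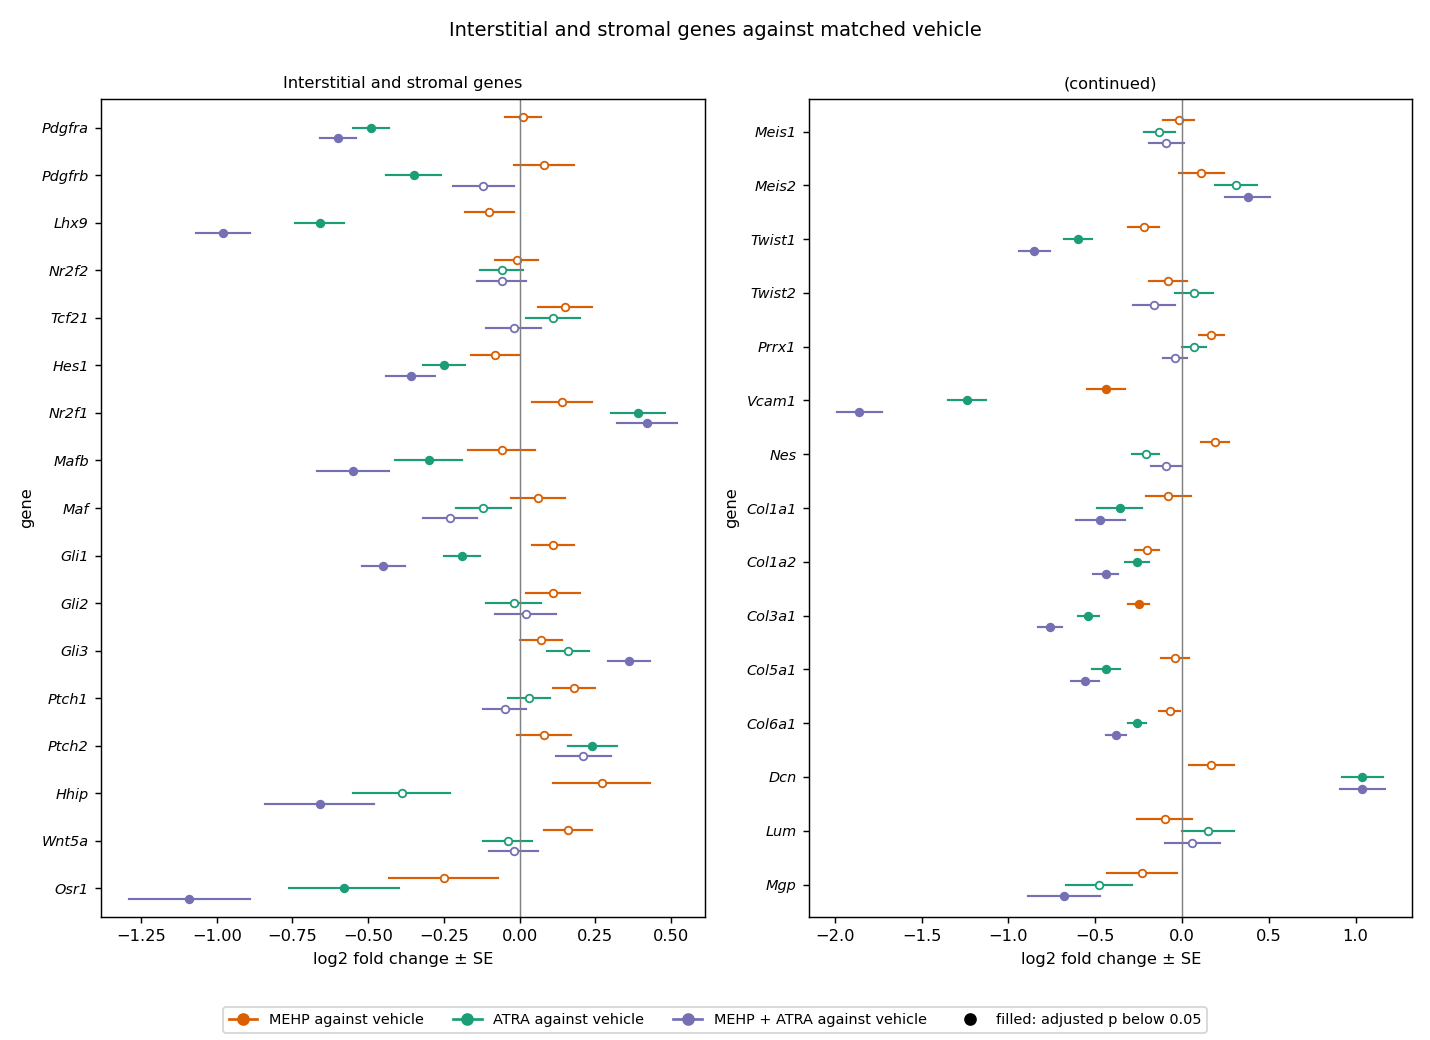
Log2 fold change ± SE (x axes) of the 32 interstitial and stromal genes (rows) for each treatment against its matched vehicle; filled points passed at an adjusted p below 0.05 (edgeR). With ATRA 14 genes fell and 3 rose, where 9.03% and 9.06% of all genes did, and Vcam1 at −1.24 and Dcn at 1.04 mark the ends.

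Among 14 early gonad transcription factor genes, which include Lhx9 and Tcf21, 4 rose and 3 fell with ATRA, 4 rose and 5 fell with MEHP + ATRA, and none was called with MEHP (edgeR, 3 had an unadjusted p below 0.05). The shares of all genes called in either direction were 18.1% for ATRA and 29.0% for MEHP + ATRA. Wt1, a zinc finger factor of the coelomic epithelium and Sertoli cells, rose by 0.63 ± 0.08 with ATRA and 0.73 ± 0.08 with MEHP + ATRA (adjusted p = 3.58e-07 and 3.23e-08, edgeR). Zfpm2, which encodes the GATA4 partner FOG2, rose by 0.30 ± 0.08 and 0.41 ± 0.09. Ldb1, whose product bridges LIM homeodomain factors such as LHX9, fell by 0.17 ± 0.05 and 0.28 ± 0.05, and the Polycomb gene Cbx2 by 0.28 ± 0.07 and 0.35 ± 0.08. Lhx2, the closest relative of Lhx9, was scarce, at 2.08 ± 0.65 CPM with ATRA (SD, n = 5) and 2.49 ± 0.592 CPM with MEHP + ATRA (n = 4), against 0.824 ± 0.191 CPM in lower-range vehicle (n = 9). It rose by 1.32 ± 0.23 and 1.59 ± 0.24 in log2 (adjusted p = 8.77e-05 and 5.76e-06, edgeR), the opposite direction from Lhx9.

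Among 16 close relatives of the 6 genes, 4 rose and 5 fell with ATRA, 3 rose and 7 fell with MEHP + ATRA, and 2 rose and 1 fell with MEHP, where 18.1%, 29.0% and 4.72% of all genes were called in either direction. Kit, which encodes a receptor tyrosine kinase of the same family as PDGFRα, rose by 0.67 ± 0.07 with ATRA and 0.97 ± 0.07 with MEHP + ATRA (adjusted p = 6.12e-09 and 4.27e-12, edgeR). It stood at 104 ± 5.85 CPM with ATRA (SD, n = 5) and 128 ± 9.69 CPM with MEHP + ATRA (n = 4), against 65.4 ± 4.97 CPM in lower-range vehicle (n = 9). Msc, a relative of Tcf21 at a low level, fell by 0.80 ± 0.15 and 1.40 ± 0.17 in log2. With MEHP the 3 called relatives were Kdr (0.50 ± 0.15, adjusted p = 0.0492), Scx (0.40 ± 0.11, adjusted p = 0.0303) and Flt3 (−1.79 ± 0.48, adjusted p = 0.0224, all edgeR). Without vehicle 6 and vehicle 11 the log2 changes were 0.48, 0.34 and −1.66, and none passed (adjusted p = 0.0851, 0.0897 and 0.0571, edgeR). In the 30 fits without 1 library, the call of Kdr was lost in 17 and those of Scx and Flt3 in 5 each, with adjusted p up to 0.149, 0.0903 and 0.104 (edgeR).

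Markers of other cell types were summed for each library. Beside the counts called, 9.06% of all genes rose and 9.03% fell with ATRA, and 14.3% rose and 14.7% fell with MEHP + ATRA. The 7 Leydig genes totalled 1995 to 2369 CPM with ATRA and 1868 to 2815 CPM with MEHP + ATRA, against 2011 to 2456 CPM in lower-range vehicle. Of these 7, Star alone was called, higher by 0.38 ± 0.13 with ATRA (adjusted p = 0.0428) and 0.81 ± 0.14 with MEHP + ATRA (adjusted p = 2.65e-05, both edgeR). The 10 genes of pericytes, smooth muscle and peritubular myoid cells, types that also carry Pdgfrb, totalled 387 to 428 CPM with ATRA and 336 to 412.8 CPM with MEHP + ATRA, against 388 to 471 CPM in lower-range vehicle. Of these 10, none rose and 2 fell with ATRA, and 2 rose and 4 fell with MEHP + ATRA. Much of the sum was Acta2, which averaged 227 and 222 CPM with ATRA and MEHP + ATRA, against 201 CPM in lower-range vehicle. Cspg4 averaged 45.4 and 36.2 CPM in these 2 groups, against 79.2 CPM. The 8 Sertoli genes overlapped in sum, at 1518 to 1838 CPM with ATRA and 1408 to 1951 CPM with MEHP + ATRA, against 1277 to 2003 CPM in lower-range vehicle, although 6 of 8 rose and 1 fell in each. Much of this sum was Amh, which averaged 671 CPM with ATRA and 473 CPM with MEHP + ATRA, against 1024 CPM in lower-range vehicle. Aard averaged 445 and 422 CPM against 196 CPM, and Cldn11 86.9 and 93.5 CPM against 27.5 CPM. The sum therefore does not show how most of the 8 genes moved. The 6 granulosa and ovarian somatic genes totalled 224 to 262 CPM with ATRA and 262 to 317 CPM with MEHP + ATRA, against 92.6 to 120.5 CPM in lower-range vehicle, and 3 of 6 rose in each. The 6 mesonephros genes were low, at 12.9 to 15.0 CPM with ATRA and 12.95 to 15.7 CPM with MEHP + ATRA, against 7.53 to 14.6 CPM in lower-range vehicle. Of these 6, 2 rose and 1 fell with ATRA, 2 rose and 2 fell with MEHP + ATRA, and the median log2 change was 0.03 and −0.69, so the sum and the median ran in opposite directions with MEHP + ATRA. Germ cell markers totalled 522 to 676 CPM with ATRA and 428 to 598 CPM with MEHP + ATRA, against 505 to 776 CPM in lower-range vehicle, and 3 of 6 fell with MEHP + ATRA. None of 6 macrophage and 6 erythroid markers was called with any treatment (edgeR), with 1 macrophage marker at an unadjusted p below 0.05 each for MEHP and ATRA. No marker on these lists was at 0 in all libraries. The part of these cell types in the changes of the 6 genes was not tested.

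Between co-exposure and MEHP alone, a comparison across title ranges, Pdgfra was lower by −0.61 ± 0.09 and Lhx9 by −0.88 ± 0.12 in log2 (adjusted p = 1.16e-05 and 5.57e-06, edgeR), and by −0.66 and −0.89 without vehicle 6 and vehicle 11. These were 2 of the 6 genes, where 4.23% of all genes were called lower and 8.29% in either direction. Hes1 was at −0.27 ± 0.11 (adjusted p = 0.144, edgeR), which passed when the range was left out of the model (adjusted p = 0.0358, edgeR). No interaction of MEHP and ATRA was called for any of the 6, none had an unadjusted p below 0.05, and 0.0311% of all genes (6 of 19323) were called, against 12 with DESeq2. DESeq2 and limma-voom with sample weights called none of the 6 either. The title range within vehicle gave no call among the 6 with edgeR, DESeq2 or limma-voom with sample weights, none had an unadjusted p below 0.05, and 0.373% of all genes were called. Its largest difference was that of Pdgfrb, −0.17 ± 0.09 in upper-range against lower-range vehicle (unadjusted p = 0.0583, adjusted p = 0.395, edgeR), and −0.25 without vehicle 6 and vehicle 11 (adjusted p = 0.27, edgeR).

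Within groups the 6 genes did not vary as a block. Deviations of log2 CPM from the mean of each library's own group and range were compared over the 30 libraries, as a description. Lhx9 and Tcf21 varied together most (Pearson 0.77, Spearman 0.64, and 0.60 without the 2 libraries farthest from the median of Lhx9). Pdgfra followed both in part, at 0.50 with Tcf21 and 0.47 with Lhx9 (0.37 and 0.34 without the 2 libraries farthest from the median of Pdgfra). Pdgfrb ran against Tcf21 (Pearson −0.53, Spearman −0.38) and Lhx9 (−0.39, −0.33), and without the 2 libraries farthest from its own median these were −0.35 and −0.25. With Pdgfra it was at 0.08. Nr2f2 was at 0.37 with Pdgfrb (0.40 without 2 libraries). Its value of 0.38 with Lhx9 dropped to 0.17 without the 2 libraries farthest from the median of Lhx9 (Spearman 0.24). Hes1 was at 0.31 or less with each. Vehicle 6 and vehicle 11 were the highest and the lowest library for both Lhx9 and Tcf21. For Pdgfrb vehicle 11 was the highest (0.41), but the lowest was vehicle 12 (−0.37), with vehicle 6 at −0.15. In its group, vehicle 11 had the highest sum of Leydig markers (3073 CPM) and of Sertoli markers (2615 CPM). It had the lowest sum of pericyte and myoid markers (372 CPM) and of granulosa markers (83.3 CPM), although it was highest for Pdgfrb. Vehicle 6 had the lowest sum of Sertoli markers (1599.5 CPM). Its sums of pericyte and myoid (468 CPM), macrophage (47.1 CPM) and mesonephros markers (13.9 CPM) were the highest. Whether these cell type differences account for the pattern was not tested.

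**Figure D5:**
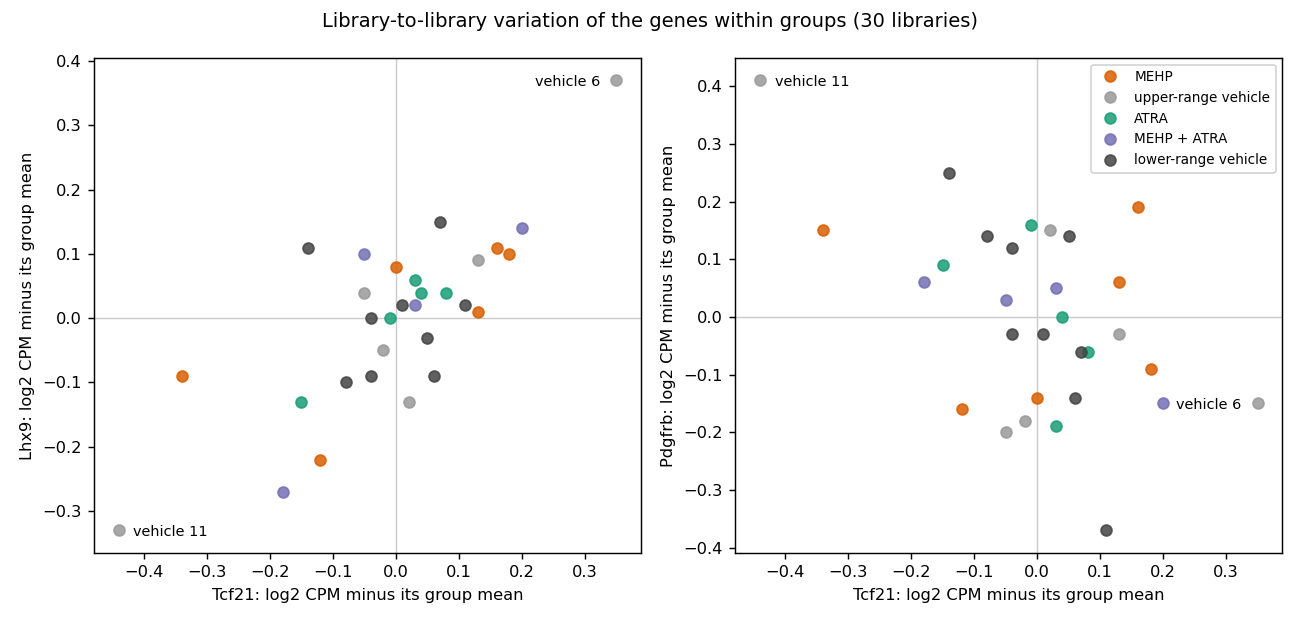
Deviation of log2 CPM from the library's own group mean, Tcf21 on the x axes against Lhx9 (left) and Pdgfrb (right), 1 point for each of 30 libraries. Lhx9 goes with Tcf21 (Pearson 0.77) and Pdgfrb against it (−0.53), and vehicle 6 and vehicle 11 are marked at the 2 ends of the Tcf21 axes.

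The genes most like each of the 6 were taken by the same measure among 10891 genes whose mean log2 CPM was 3 or more. For Lhx9 they were Rarres2 (Pearson 0.89), Gucy1a1 (0.86) and Alcam (0.84), and for Tcf21 they were Slc7a2 (0.87), Gucy1a1 (0.84) and Cacnb4 (0.84), so Gucy1a1 stood on both lists. For Pdgfra they were Igsf10 (0.84), Nedd4 (0.83) and Ttc3 (0.81), and for Pdgfrb Foxn3 (0.85), Itga9 (0.80) and Adam19 (0.80). For Nr2f2 they were St8sia2 (0.84), Cdc25a (0.84) and Maf (0.83). The nearest genes of Hes1 were less like it, Eid2 (0.78), Dact3 (0.68) and Arih1 (0.65). How the libraries relate to each other is not stated, and depth and cell makeup may differ between them. These values therefore describe the 30 libraries and carry no test.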

How the data were processed

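RNA was measured in 30 libraries of cultured mouse fetal testis. Per the file headers, the authors deposited 1 table of whole-number counts a library, made by featureCounts. Tools named in the submitters' processing notes are bcl2fastq 2.20, Trimmomatic 0.36, STAR 2.5.2b, Subread 1.5.2 (featureCounts) and DESeq2. The labels' protocols name poly(A) enrichment and a NEBNext Ultra II kit. Genome build, annotation release and the strand setting were not given in the sources used here. Groups came from the treatment label, and library numbers follow accession order and only name libraries. No 2 libraries had more than 1.16% of identical counts, so none was taken as a duplicate.

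Symbols were matched by identifier (99.3% of 49315 genes). Counts were analysed with edgeR 4.0.16 (R 4.3.3): filterByExpr with a minimum count of 10 left 19323 genes, TMM factors ran from 0.975 to 1.02, and 1 quasi-likelihood model over 30 libraries held group and title range (25 residual degrees of freedom, common biological coefficient of variation 12.7%). F tests were two-sided with Benjamini-Hochberg adjustment over all genes and a threshold of 0.05. Standard errors came from the F statistic and 95% intervals from its 30.1 total degrees of freedom. CPM are TMM-scaled, and TPM use the exon lengths in the files. The pipeline was tested on simulated data.

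The 6 genes and all gene lists were chosen with earlier results of these data known. A gene of the interstitial and stromal list is not reported here and was left out of its counts and medians. Named genes were the 6, Pdgfa, Jag1, Cyp26a1, Rarb, Mvd and Angptl4, up to 4 called genes of smallest p in each pathway list and treatment, and the 3 most alike of each of the 6. Genes named beyond these, such as those in counts of 5 or fewer, were chosen after their values were seen. Alternatives were DESeq2 1.42.0, limma-voom with sample weights (limma 3.58.1), other scaling, no filter, no range term, 1 range alone, a replicate block and leaving out each library. Leaving out vehicle 6 and vehicle 11 together was added after seeing the data. Precision is limited by 4 to 9 libraries a group and by a depth of 17551454 to 29306917 counts.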

Additional observations from a re-analysis of the deposited data

Results flagged for a closer look

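Gaps between the most extreme library and the rest of its group were checked for 8 genes (the 6 interstitial progenitor genes, Pdgfa and Jag1) in 5 groups of 4 to 9 libraries, 40 groups in all, and 4 libraries lay farther out than Dixon's 95% limit allows. Chance flags about 1 in 20 such groups. Pdgfrb was at 99.61 CPM in MEHP + ATRA 4, below the other 3 libraries of its group (112.89 to 115.0 CPM). Nr2f2 was at 266.62 CPM in vehicle 6, above the other upper-range vehicle libraries (204.93 to 217.36 CPM). Pdgfa was at 187.22 CPM in vehicle 11, above the other upper-range vehicle libraries (77.325 to 116.16 CPM), and at 24.738 CPM in ATRA 3, below the other ATRA libraries (31.391 to 33.739 CPM).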

How the results depend on the processing

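The falls of Pdgfra and Lhx9 with ATRA and with MEHP + ATRA, and of Hes1 with MEHP + ATRA, passed in all 9 alternatives and in all 30 fits without 1 library. The fall of Pdgfrb with ATRA did so too, and that of Hes1 with ATRA passed in the 9 alternatives and in 28 of the 30 fits. Counts over all genes moved more than those of the 6 genes. With MEHP, 912 genes were called, against 2229 with no range term and 439 with 1 title range only. With ATRA the counts were 3494 and, with limma-voom with sample weights (limma-voom in this section, which changed tool and weights together), 5527. For MEHP + ATRA against ATRA they were 579, against 1656 with limma-voom, 967 with 1 range only and 340 to 689 without 1 library. In that comparison 1 of the 6 genes (Lhx9) was called with DESeq2, with limma-voom, with 1 range only, with the replicate block within each range and without vehicle 6 and vehicle 11, and 0 to 1 without 1 library. For MEHP + ATRA against MEHP, 1601 genes were called and 3181 with no range term. The 6 interaction calls became 12 with DESeq2, 10 with limma-voom and 10 with no range term (3 to 8 without 1 library). The 72 calls of the range in vehicle became 338 with DESeq2, 136 with limma-voom, 19 with no filter and 10 without vehicle 6 and vehicle 11 (10 to 169 without 1 library).

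The labels do not say what the first title number marks. Same-numbered libraries of different groups had deviations correlated over 0.1 in 19 of 29 pairs (−0.26 to 0.79, median 0.17, against a median of 0.0 for other pairs), which falls short of every pair, so the block was kept as an alternative. That 18 of 30 libraries correlated best with their own number is a hint from the data, not the design. With a replicate block on the first title number, MEHP + ATRA against ATRA had 1371 calls, the interaction 3 and the range 42. With the block within each range, the interaction had 2 calls, and Lhx9 in MEHP + ATRA against ATRA had an adjusted p of 0.0474 (edgeR).

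Among the named genes, signs turned only for values near 0 that passed in no fit. Nr2f2 was at 0.04 (limma-voom), 0.00 (no filter), 0.04 (no range term) and 0.05 (without vehicle 6 and vehicle 11) with MEHP, 0.00 with MEHP + ATRA in both block fits, −0.02 against ATRA (limma-voom), 0.01 against MEHP (both block fits), and −0.06, −0.04 and −0.04 in the interaction (limma-voom, no range term, without vehicle 6 and vehicle 11). Tcf21 with MEHP + ATRA was at 0.02 (limma-voom) and 0.00 (no range term), and Pdgfrb with MEHP at −0.03 (no range term). Hes1 was at 0.04 (limma-voom) and 0.01 (without vehicle 6 and vehicle 11) in the interaction, and at 0.06 and 0.01 under the same settings for the range. Jag1 with MEHP was at 0.04 without vehicle 6 and vehicle 11. Without 1 library, ranges that crossed 0 were −0.02 to 0.07 (Pdgfra, MEHP), −0.06 to 0.05 (Nr2f2, MEHP), −0.09 to 0.01 (Jag1, MEHP), −0.09 to 0.04 (Tcf21, MEHP + ATRA), −0.03 to 0.04 (Nr2f2, MEHP + ATRA against ATRA), −0.11 to 0.00 (Nr2f2, MEHP + ATRA against MEHP), −0.04 to 0.06 (Nr2f2, interaction), −0.07 to 0.06 (Hes1, interaction), and −0.14 to 0.01 (Lhx9), −0.15 to 0.01 (Tcf21) and −0.05 to 0.01 (Hes1) for the range. By Spearman in place of Pearson, the likeness of Lhx9 and Gucy1a1 and that of Tcf21 and Slc7a2 were 0.70. The causes were not tested.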
